A study of Mus musculus with 22 samples.

Results

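The 7 genes described here belong to the oxidative burst of phagocytes. They are Cybb, Cyba, Ncf1 and Ncf4, which encode subunits of the phagocyte NADPH oxidase, Rac2, which encodes the small GTPase of the active enzyme, Hvcn1, which encodes the voltage-gated proton channel, and Nos2, which encodes inducible nitric oxide synthase. They were chosen by name, with earlier results of these data known, and all 7 were found among the 56691 genes of both deposited count files by matching Ensembl identifiers to symbols. All 7 passed the filter on low counts in every comparison.

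RNA was sequenced from CD11b+ cells of whole mouse brain, 22 libraries from 20 animals of the CF-1 strain, all wildtype. CD11b is an integrin chain on the surface of myeloid cells, microglia among them, and magnetic beads against it raise the share of such cells without making them pure. HIE, short for hypoxic-ischemic encephalopathy, stands for pups of dams given LPS, a bacterial product, late in gestation that then had a short global hypoxia on P6, and the controls had neither. On P7 there were 4 HIE pups, all labelled male, and 4 control pups, 2 of each sex. On P14 there were 4 HIE animals, 4 controls and 4 animals labelled hypoxia, a group not described further in the sources used here, each group with 2 animals of each sex label. The names of the P14 animals start with P4H or P6H, 2 and 2 in HIE and in controls, whereas all 4 hypoxia animals are P6H. All 8 younger pups are called P7 here because the methods name this day for collection, whereas the labels of the 4 P7 controls read P8, P9, P10 and P11. By their names, 2 of these controls belong to P6H63 (P8 and P9, the P6H63 pair) and 2 to P6H55 (P10 and P11, the P6H55 pair), read here as 2 litters, so litter and labelled day cannot be told apart. The 4 HIE pups of P7 likewise carry 2 name prefixes, N5 and N8, with 2 pups each. Each P14 group also holds 2 full name prefixes with 2 animals each, P4H1 and P6H12 in HIE, P4H4 and P6H8 in controls, P6H7 and P6H9 in hypoxia. The labels name separate animals within each group, and p-values measure the spread between these animals. Animals that share a prefix may not be independent, on P7 or P14, and the tests and intervals do not account for this. P7 and P14 libraries came in separate files, so age and file cannot be told apart and no levels were tested between the days. Only the HIE difference on P7 was tested against that on P14.

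The phagocyte oxidase moves electrons from NADPH across a membrane to oxygen and so makes superoxide. Its membrane core holds the catalytic chain gp91phox (Cybb) and its partner p22phox (Cyba), and the enzyme becomes active when cytosolic subunits, p47phox (Ncf1) and p40phox (Ncf4) among them, and a Rac GTPase join it. Protons leave through the Hvcn1 channel, which balances the charge that the electrons carry. Microglia, the resident phagocytes of the brain, are known for this enzyme, and inducible nitric oxide synthase makes nitric oxide, which reacts with superoxide to form peroxynitrite.

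Of the 7 genes, the RefSeq promoter table of build GRCm38.p6 held a sequence for Cybb, Cyba and Ncf1 only, and the 250 bases before each start are shown. In pairs, the levels of these 3 subunit genes had a correlation r of 0.88 to 0.93 over the 20 animals, but of −0.21 to 0.52 over the 12 P14 animals. In phagocytes such genes are known targets of PU.1, the factor encoded by Spi1, which binds a purine-rich core. Capitals mark AGGAA or its reverse complement TTCCT, searched on both strands.
Cybb, chrX:9469325-9469574, minus strand: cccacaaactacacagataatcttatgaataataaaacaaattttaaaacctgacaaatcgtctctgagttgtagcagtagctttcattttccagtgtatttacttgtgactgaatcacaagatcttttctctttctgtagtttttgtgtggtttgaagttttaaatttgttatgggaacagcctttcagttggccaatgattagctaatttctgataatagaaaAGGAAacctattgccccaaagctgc
Cyba, chr8:122432941-122433190, minus strand: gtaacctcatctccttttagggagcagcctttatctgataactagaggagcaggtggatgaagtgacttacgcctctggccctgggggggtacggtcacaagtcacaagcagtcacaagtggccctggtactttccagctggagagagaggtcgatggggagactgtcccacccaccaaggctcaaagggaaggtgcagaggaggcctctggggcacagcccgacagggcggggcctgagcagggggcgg
Ncf1, chr5:134229626-134229875, minus strand: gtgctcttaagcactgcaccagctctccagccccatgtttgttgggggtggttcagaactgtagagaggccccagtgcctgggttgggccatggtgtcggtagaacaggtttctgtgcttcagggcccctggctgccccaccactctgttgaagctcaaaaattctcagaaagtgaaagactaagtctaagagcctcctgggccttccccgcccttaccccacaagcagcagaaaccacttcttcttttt
The core stands once in the Cybb window, with its first base 25 bases before the start, and not in the other 2 windows. Of the 32851 promoter windows in the table, 60.3% hold it. The longer GAGGAA (reverse complement TTCCTC), which contains it, was searched first, is in none of the 3 windows and is in 23.3% of all windows, and AGGAA was chosen after that was seen. An NF-kB type motif, GGGA and CC with any 4 bases between them, was searched on both strands as well and stands once in each window, with its first base 51 bases before the start in Ncf1, 231 in Cyba and 76 in Cybb. It is in 17.6% of all windows. A match of letters is not a measured binding site.

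Sequencing was deep, with 70191584 to 83469067 counts per library on P7 and 29751540 to 46404123 on P14, so that 3 counts, taken as the smallest level told from 0, correspond to at most 0.0427 and 0.1008 CPM, the counts of a gene per 1000000 counts of the library. This floor covers counting error only. Gene levels given here are CPM divided in addition by a TMM factor per animal, which scales between libraries, whereas the floor is not. The factor was 1.19 and 1.17 in the P6H63 controls and 0.946 to 0.979 in P7 HIE. The labelled cell type was checked against 16 markers of microglia, none of which was at the floor, and their mean log2 CPM was 9.69 ± 0.10 (SD, n = 4) in P7 HIE and 9.71 to 10.01 in the P14 groups. The 2 P6H63 controls stood apart at 6.09 and 6.76, against 9.23 and 9.37 in the 2 P6H55 controls. Itgam, the gene of CD11b itself, averaged 81.0 CPM in the P6H63 pair and 917 CPM in P7 HIE. Since these 2 pups lie this far from every other animal, the P7 results are given against all 4 controls and against each control litter. In bulk RNA, fewer cells of a type and less RNA per cell cannot be told apart.

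Of the 7 genes 6 shared a pattern across animals. Cybb, Cyba, Ncf1, Ncf4, Rac2 and Hvcn1 were lowest in the 2 P6H63 controls, where the P6H55 controls had 4.19 to 6.96 times their level, and Nos2 was highest there. Per kilobase of exon, the mean level in P7 HIE was 96.6 CPM for Ncf1, 57.9 for Rac2, 52.9 for Cyba, 16.1 for Ncf4, 12.4 for Hvcn1, 11.6 for Cybb and 1.19 for Nos2. The organizer subunit Ncf1 thus stood highest and inducible nitric oxide synthase lowest by this length-scaled level.

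**Figure D1:**
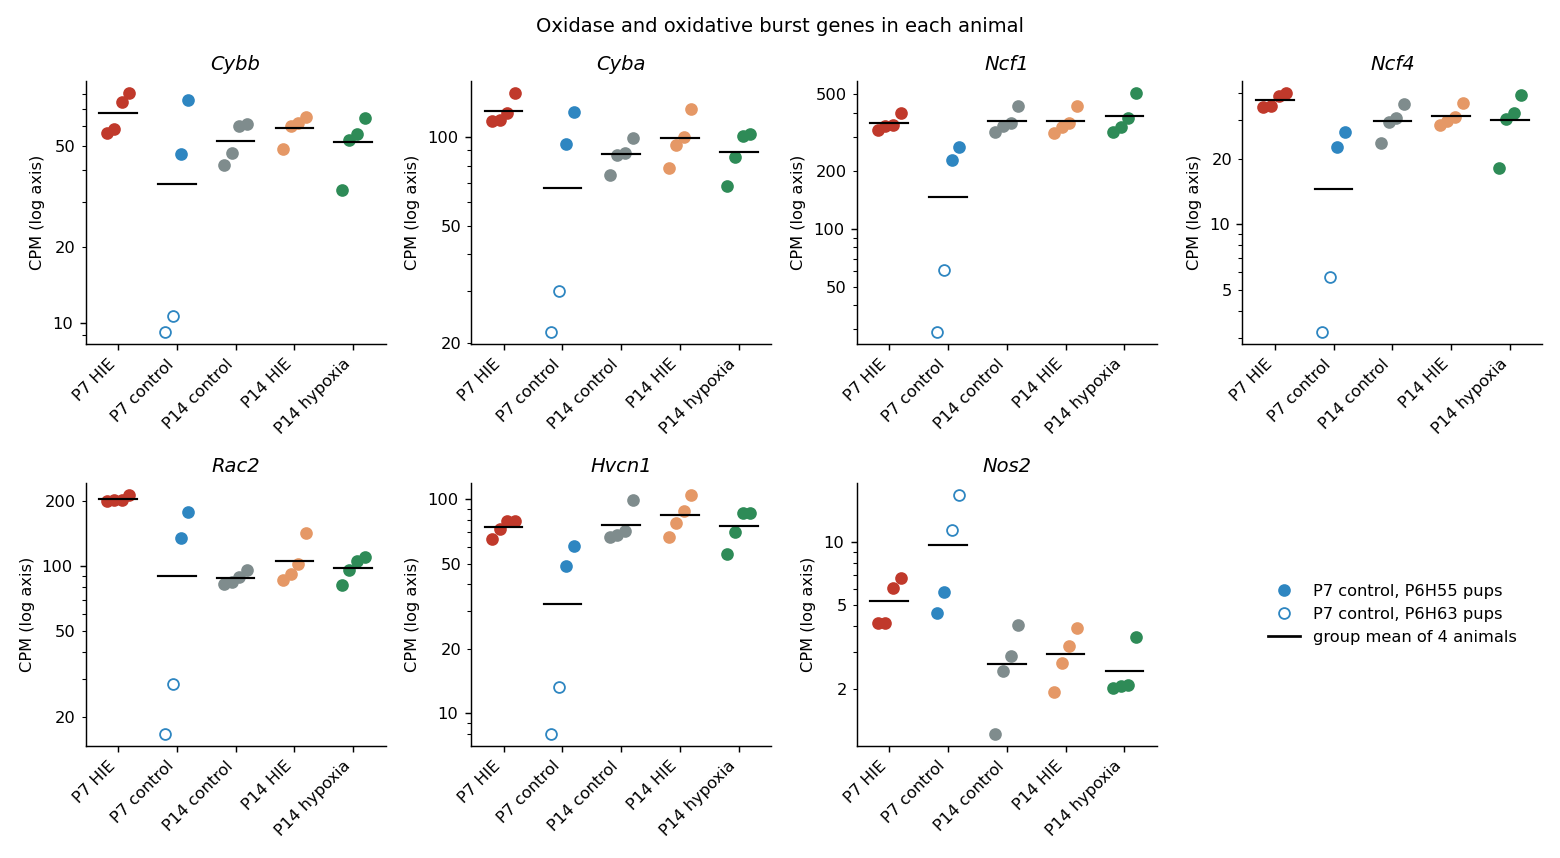
Level of each of the 7 genes in each of the 20 animals, in CPM on a log axis, by group, with a horizontal line at the mean of the 4 animals. Open circles are the 2 P6H63 controls, which lie below all other animals for 6 genes and above all other animals for Nos2 (11.5 and 16.9 CPM).

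Cybb, the catalytic chain, lies on chromosome X at 9301491-9354010 (GRCm39, minus strand) and overlaps Xk on the opposite strand. It had 56.3, 58.1, 74.5 and 80.7 CPM in the P7 HIE pups, 9.23 and 10.7 CPM in the P6H63 pair and 46.4 and 75.4 CPM in the P6H55 pair. On P14 it had 41.9, 46.8, 59.9 and 61.1 CPM in controls, 48.6, 60.0, 61.3 and 65.1 CPM in HIE and 33.6, 52.7, 55.4 and 64.3 CPM in hypoxia. Of the P6H55 controls 1 lay below the HIE pups and the other among them, the P6H63 controls were far below them, and the 3 P14 groups overlapped. Against all 4 P7 controls the log2 fold change was 0.91 (95% interval −0.58 to 2.41, edgeR adjusted p = 0.354).

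Cyba, the partner chain that steadies Cybb in the membrane, lies on chromosome 8 at 123150422-123159706 (minus strand) and overlaps Il17c on the opposite strand. Its P7 HIE values were 113, 114, 121 and 141 CPM, with 21.8 and 29.9 CPM in the P6H63 pair and 94.5 and 122 CPM in the P6H55 pair. On P14 all 12 animals lay between 68.0 and 124 CPM. As for Cybb, 1 P6H55 control lay among the HIE pups. The log2 fold change against all P7 controls was 0.85 (−0.36 to 2.07, edgeR adjusted p = 0.295).

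Ncf1, the organizer subunit that brings the cytosolic part to the membrane, lies on chromosome 5 at 134248907-134258479 (minus strand) and overlaps Gtf2ird2 on the opposite strand. It had 325, 344, 345 and 402 CPM in P7 HIE, 29.1 and 61.1 CPM in the P6H63 pair and 228 and 265 CPM in the P6H55 pair. Every HIE pup was above every P7 control, and the 12 animals of P14 lay at 317 to 509 CPM, with the groups overlapping. The log2 fold change on P7 was 1.27 (−0.19 to 2.72, edgeR adjusted p = 0.221).

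Ncf4, the subunit that binds a phosphoinositide of phagosome membranes, lies on chromosome 15 at 78128982-78146784 (plus strand). It had 34.6, 35.0, 39.0 and 40.1 CPM in P7 HIE, 3.20 and 5.73 CPM in the P6H63 pair and 22.7 and 26.6 CPM in the P6H55 pair. Here too the HIE pups lay above all controls, by the widest relative margin of the 7 genes over the P6H55 pups. The log2 fold change against all controls was 1.34 (−0.09 to 2.77, edgeR adjusted p = 0.199). On P14 it ranged from 18.1 to 39.2 CPM, both ends being hypoxia animals.

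Rac2, the Rac GTPase of blood and immune cells, lies on chromosome 15 at 78443367-78457429 (minus strand). The P7 HIE pups were close together at 200, 204, 204 and 215 CPM, against 16.8 and 28.5 CPM in the P6H63 pair and 136 and 179 CPM in the P6H55 pair. On P14 it had 83.0, 84.9, 89.1 and 96.7 CPM in controls, 86.1, 91.8, 103 and 143 CPM in HIE and 82.0, 96.5, 106 and 110 CPM in hypoxia. The 4 HIE pups of P7 were thus above all other 16 animals, and their mean was 1.94 times that of P14 HIE. No other of the 6 phagocyte genes had a ratio of these means above 1.23 or below 0.877. The P6H55 controls were also higher than the P14 controls, whose mean was 0.561 times theirs. The log2 fold change between P7 HIE and all P7 controls was 1.17 (−0.41 to 2.76, edgeR adjusted p = 0.275).

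Hvcn1, the proton channel, lies on chromosome 5 at 122344867-122382736 (plus strand) and overlaps Tctn1 on the opposite strand. It had 65.3, 72.4, 78.8 and 79.2 CPM in P7 HIE, 8.02 and 13.3 CPM in the P6H63 pair and 48.5 and 60.2 CPM in the P6H55 pair. The HIE pups were above all 4 controls, with a log2 fold change of 1.17 (−0.20 to 2.54, edgeR adjusted p = 0.225). On P14 it ranged from 55.5 to 105 CPM.

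Nos2, inducible nitric oxide synthase, lies on chromosome 11 at 78811613-78851080 (plus strand), with no overlapping gene in the annotation. It had 4.12, 4.12, 6.07 and 6.78 CPM in P7 HIE, 11.5 and 16.9 CPM in the P6H63 pair and 4.58 and 5.82 CPM in the P6H55 pair. On P14 it had 1.22, 2.43, 2.87 and 4.02 CPM in controls, 1.93, 2.65, 3.21 and 3.88 CPM in HIE and 2.01, 2.05, 2.09 and 3.54 CPM in hypoxia. All 8 P7 pups were above all 12 P14 animals, and within P7 the P6H63 pair was highest, whereas HIE and the P6H55 pair overlapped. The log2 fold change between P7 HIE and all controls was −0.85 (−1.76 to 0.07, edgeR adjusted p = 0.202). Its lowest count in an animal was 39, well above the floor of 3. The library kit keeps strand, but whether the counting used it is not given in the sources used here, so reads of Cybb, Cyba, Ncf1 and Hvcn1 may include reads of their opposite-strand partners.

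Across the 5 groups, most neighbours in the order of mean CPM overlapped between animals. Cybb, Cyba and Ncf4 had the order P7 HIE, then the P14 groups, then P7 control, with no neighbours apart in their ranges. Ncf1 and Hvcn1 were alike in all groups but P7 control, which lay below P7 HIE without overlap. For Rac2, P7 HIE lay above P14 HIE without overlap, and for Nos2 both P7 groups lay above the P14 groups. Where P7 and P14 differ, age and file cannot be told apart.

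The main comparison asked how the brain's CD11b+ cells differed 1 day after the hypoxia. Against all 4 P7 controls, none of the 7 genes passed the edgeR quasi-likelihood test at an adjusted p of 0.05, and none had an unadjusted p under 0.05. Of all 22517 genes tested, 0.0666% passed. Of the 7 genes 6 were higher in HIE by the fit, with a median log2 fold change of 1.17 over the 7 against −0.08 over all genes tested. Ncf1, Ncf4, Rac2 and Hvcn1 were higher in every HIE pup than in every control, which 9.46% of all genes tested were. DESeq2 passed none of the 7 either, although it passed 13.4% of all genes. In none of the 7 were all HIE pups below all controls, which held for 7.7% of all genes. The controls were spread widely, from 29.1 to 265 CPM for Ncf1 for example, and the 95% intervals reached from below 0 to 2.07 or more for the 6 phagocyte genes.

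Against the 2 P6H63 controls alone, all 7 genes passed, 6 higher and 1 lower in HIE, where 58.5% of 23780 genes passed, 27.7% higher and 30.8% lower. Rac2 was 9.64-fold higher (log2 fold change 3.27 ± 0.20 SE, edgeR adjusted p = 1.48e-05) and Ncf4 8.84-fold higher (3.14 ± 0.23, edgeR adjusted p = 2.57e-05). Ncf1 was 8.34-fold, Hvcn1 7.36-fold, Cybb 7.17-fold and Cyba 5.01-fold higher, with edgeR adjusted p-values of 1.92e-05 to 8.47e-05. Nos2 was 2.53-fold lower (−1.34 ± 0.25, edgeR adjusted p = 0.00241). All 6 phagocyte genes were higher and Nos2 lower without overlap, as were 29.6% and 40.0% of all genes. Most genes passed here, so passing does not set the 7 genes apart.

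Against the 2 P6H55 controls, none of the 7 passed with edgeR, where 0.112% of 23274 genes did. The log2 fold change was 0.57 for Ncf4 (0.33 to 0.81, edgeR adjusted p = 0.143), 0.50 for Ncf1 (0.25 to 0.76), 0.43 for Hvcn1 (0.16 to 0.69) and 0.37 for Rac2 (0.11 to 0.63). These 4 had unadjusted edgeR p-values of 0.000649 to 0.0122, where 16.5% of all genes were under 0.05, and no overlap between HIE and the P6H55 controls, which 14.7% of all genes tested showed in this direction and 11.3% in the other. Cyba at 0.16 (−0.15 to 0.46), Cybb at 0.13 (−0.39 to 0.64) and Nos2 at 0.00 (−0.58 to 0.58) overlapped. DESeq2 passed 3 of the 7 here, Ncf1, Ncf4 and Hvcn1, and 4.2% of all genes, and edgeR's exact test passed Ncf1 and Ncf4 and 1.87% of all genes. Without the filter on low counts Ncf4 passed, with 0.434% of all genes. When the control P6H55-7 was left out, the quasi-likelihood test passed Ncf1, Ncf4, Hvcn1 and Rac2, and 10.5% of all genes, with the remaining control taken to vary like the HIE pups. Sex label as a covariate was added after the data were seen. All HIE pups were male, so the female control informed the sex term alone and the HIE difference rested on P6H55-7. In that fit the log2 fold change of Rac2 was 0.18 and that of Hvcn1 0.28.

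Markers of microglia, of endothelial cells and of choroid plexus, the secretory tissue of the brain's ventricles, also differed between HIE and the P6H55 controls. Of the 16 microglia markers 12 were higher in HIE without overlap, as were 14.7% of all genes, with a median log2 fold change of 0.34. All 5 choroid plexus markers (median −1.0) and 5 of 7 endothelial markers (median −0.27) were lower without overlap, as were 11.3% of all genes. The 6 astrocyte markers had a median of −0.38 and overlapped. So did the 10 neutrophil markers, with a median of −0.5 and 0 of them above 0. The median over all genes was −0.02, and edgeR passed none of these markers. Summed over the 5 markers, the choroid plexus level was 1115 to 2071 CPM in P7 HIE, 3663 and 4119 CPM in the P6H55 pair and 3462 and 8800 CPM in the P6H63 pair. All 5 were lower in HIE than in every control, as were 7.7% of all genes. When libraries were scaled to the microglia markers, the log2 fold changes against the P6H55 controls were 0.21 for Ncf4, 0.13 for Ncf1, 0.06 for Hvcn1 and 0.00 for Rac2, and none of the 7 passed where 28.6% of all genes did (edgeR adjusted p = 0.168 to 0.983 for these 4). The part of the choroid plexus or of endothelial cells in the levels of the 7 genes was not tested.

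**Figure D2:**
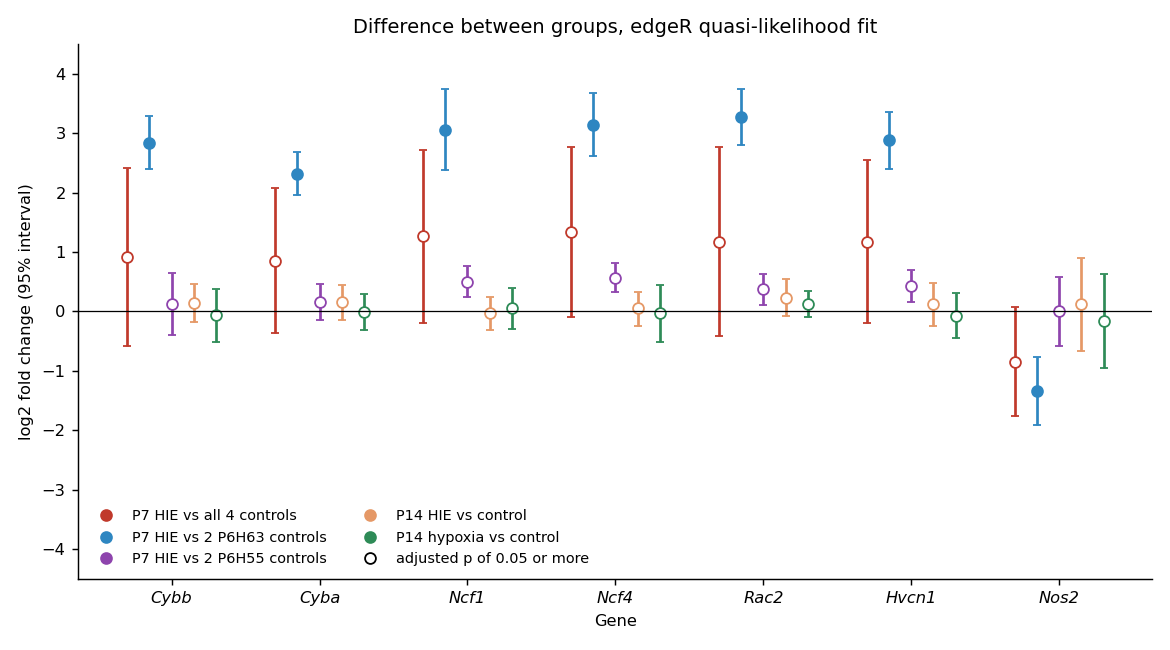
Log2 fold change of the 7 genes with its 95% interval in 5 comparisons, filled where the edgeR adjusted p is under 0.05. Against the P6H63 controls 6 genes lie between 2.32 and 3.27 and Nos2 at −1.34, and no point of the other comparisons is filled.

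On P14 no comparison passed for any of the 7 genes, and no group lay apart from another. Of all genes, HIE lay above control without overlap in 2.88% and below in 2.57%, hypoxia above control in 3.37% and below in 2.13%, and HIE above hypoxia in 1.34% and below in 1.19%. Between HIE and control the log2 fold changes ran from −0.03 for Ncf1 (−0.31 to 0.25) to 0.23 for Rac2 (−0.08 to 0.54), the latter with an edgeR adjusted p of 0.673, and 0.00478% of all 20934 genes passed. Between hypoxia and the same 4 controls they ran from −0.16 for Nos2 (−0.95 to 0.63) to 0.12 for Rac2 (−0.10 to 0.34), where 0.00955% of genes passed. These 2 comparisons share their controls. Between HIE and hypoxia they ran from −0.11 for Ncf1 to 0.25 for Nos2 (−0.38 to 0.89), where again 0.00955% passed. For the 6 phagocyte genes, the intervals of HIE against control end at 0.25 to 0.54, so a difference of the size seen against the P6H63 controls on P7 lies outside them. The P7 differences against the P6H55 controls lie inside them for Rac2, Hvcn1, Cyba and Cybb. All these intervals take animals that share a name prefix as independent.

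The HIE difference on P7 was also compared with that on P14 in a single fit. The difference of log2 fold changes was 1.29 for Ncf1 and Ncf4, 1.05 for Hvcn1, 0.93 for Rac2, 0.77 for Cybb, 0.69 for Cyba and −0.98 for Nos2. None passed, with edgeR adjusted p-values of 0.389 to 0.626, where 0.00405% of 24693 genes passed.

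Over all 20 animals the level of microglia markers moved with the 6 phagocyte genes (r = 0.80 to 0.99), where the 2 P6H63 pups weigh heavily. Over the 12 P14 animals r ran from −0.20 for Cybb to 0.86 for Cyba. The score of the 16 markers was 7.86 ± 1.69 (SD, n = 4) in the P7 controls and 9.69 ± 0.10 in P7 HIE, a difference of 1.83 (exact two-sided permutation test, p = 0.0286, the smallest that 70 relabellings allow). Pups that share a name prefix may not be independent, and with the 4 prefixes as units only 6 relabellings exist, which cannot give a p below 0.333. Their summed level was 1764 and 2840 CPM in the P6H63 controls, 16043 and 18226 CPM in the P6H55 pair and 20862 to 23663 CPM in P7 HIE. Rac2 minus this score was −2.01 ± 0.06 in P7 HIE, −1.97 ± 0.06 (n = 2) in the P6H63 pair and −2.02 ± 0.19 (n = 2) in the P6H55 pair, on the log2 scale. Of the 6 phagocyte genes, Rac2 differed least between P7 HIE and the P6H63 pair on this scale, while in the P14 groups the value was −3.31 to −3.19. The ranges were −2.15 to −1.88 over the 8 P7 pups and −3.48 to −2.97 over the 12 P14 animals.

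Cyba differed most. Its level minus the microglia score was −2.77 ± 0.23 in P7 HIE, −1.75 ± 0.15 in the P6H63 pair and −2.56 ± 0.16 in the P6H55 pair. For Hvcn1 it was −3.49 ± 0.11 in P7 HIE and −3.05 ± 0.04 in the P6H63 pair, also without overlap, and for Cybb −3.63 ± 0.34 and −3.10 ± 0.33, with overlap. When the libraries were scaled so that the 16 microglia markers were level in all animals, Cyba was lower in HIE than in the P6H63 controls (log2 fold change −1.01 ± 0.24, edgeR adjusted p = 0.000439). The other 5 phagocyte genes then had log2 fold changes of −0.51 to −0.04 and none passed, so that all 6 turned direction under this scaling. The scaling moved the median of all genes from −0.02 to −3.39, and 96.5% of genes passed. Nos2 had a log2 fold change of −4.66 in that fit. Against all 4 controls under this scaling Nos2 passed, with 84.2% of all genes, and it passed between the P7 and P14 differences, with 56.3% of all genes.

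Across the 12 P14 animals, the genes differed in which markers they moved with. These values are descriptions over animals whose libraries share a file, with no test. Rac2 (r = 0.85, rho = 0.86) and Cyba (r = 0.86, rho = 0.71) went with the microglia score, and r was 0.81 and 0.76 without the 2 animals farthest from the median score. For Cybb r was −0.20 (rho = −0.19), or −0.39 without those 2. Of 10 marker scores, Cybb had its highest r with the 8 markers of border-associated macrophages, which line the vessels and coverings of the brain (r = 0.77, rho = 0.71, and r = 0.51 without the 2 farthest animals). With the 7 markers of T and NK cells, which summed to at most 1.89 CPM in any animal, its r was 0.69 (rho = 0.90, and r = 0.84 without the 2 farthest), and it was 0.55 with neutrophil and 0.52 with monocyte markers. In the animal with the lowest Cybb on P14, a hypoxia animal at 33.6 CPM, the other 5 phagocyte genes lay within the range of the other P14 animals.

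On P7, Nos2 was highest in the pups with the most endothelial signal, the P6H63 pair, which also had the highest astrocyte and neuron scores. Over the 8 P7 pups, r of Nos2 was 0.94 with the endothelial, 0.82 with the astrocyte and 0.76 with the neuron score. With the microglia score it was −0.87. The score of 7 endothelial markers was 6.47 ± 0.17 (SD, n = 4) in P7 HIE, 7.71 and 8.03 in the P6H63 pair and 6.77 and 6.78 in the P6H55 pair. Nos2 minus this score was −4.10 ± 0.26 in P7 HIE and −4.23 ± 0.26 in the P7 controls, and −5.72 to −5.22 in the P14 groups by their means. Within the 12 P14 animals r was 0.74 (rho = 0.61), or 0.46 without the 2 animals farthest from the median score. In the same 12 animals Nos2 had r of 0.63 with the microglia score (rho = 0.46, and r = 0.24 without the 2 farthest), 0.54 with the astrocyte score (rho = 0.56, and r = 0.39) and −0.44 with that of border-associated macrophages (rho = −0.43, and r = −0.73). Summed over the 7 markers, the endothelial level was 1758 and 2255 CPM in the P6H63 controls, 886 and 892 CPM in the P6H55 pair and 632 to 840 CPM in P7 HIE. Its part in the Nos2 difference was not tested.

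**Figure D3:**
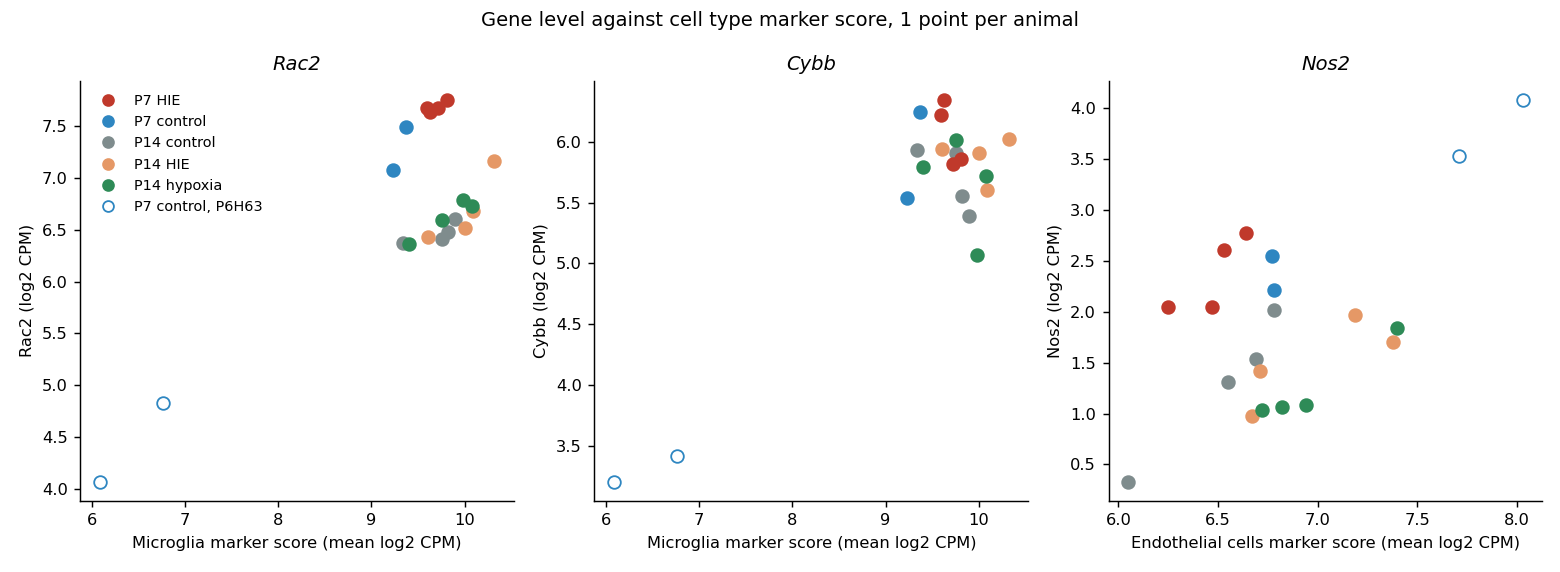
Log2 CPM of Rac2 and Cybb against the microglia marker score, and of Nos2 against the endothelial marker score, 1 point per animal and open circles for the 2 P6H63 controls. Rac2 lies on separate levels for P7 and P14 at like scores, and Nos2 is highest in the 2 animals with the highest endothelial score.

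Markers of other cells moved with the P6H63 controls too. The summed level of 10 neutrophil markers was 18.5 and 21.3 CPM there, 160 and 178 CPM in the P6H55 pair and 79.3 to 199 CPM in P7 HIE, and the 6 astrocyte markers reached 4192 and 4994 CPM there against 1293 to 1740 CPM in P7 HIE. No marker of neutrophils was at the floor in all animals. On P14 the neutrophil sum ranged from 82.4 to 452 CPM in HIE, 87.6 to 303 CPM in hypoxia and 93.7 to 128 CPM in controls. By the fit all 10 were higher than in controls in HIE (median log2 fold change 1.01) and in hypoxia (0.89), each with overlap. Unadjusted edgeR p-values were under 0.05 for 5 and 6 of them, as for 9.87% and 9.53% of all genes, and none passed. Neutrophils carry the same oxidase, and the part of any of these cells in the levels of the 7 genes was not tested.

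The genes most like each of the 7 were sought among all genes with a mean of at least 1 CPM, by the correlation of log2 CPM over the 20 animals, a measure in which the 2 P6H63 pups weigh heavily. For Rac2 these were Spi1 (r = 0.995, and 0.879 over the 12 P14 animals), which encodes PU.1, Arpc1b, an actin-branching subunit, and Grn, which encodes progranulin. For Ncf1 they were Irf5 (r = 0.995), an interferon regulatory factor, the kinase gene Lyn and Nckap1l, and for Ncf4 they were C1qb, a complement subunit, Ly86 and Psmb8 (r = 0.985 to 0.988). For Hvcn1 they were Pla2g15, Rps6ka1 and Irf5 (r = 0.988 to 0.989). For Cyba they were Nagpa, Hk3 and Npc2 (r = 0.980 to 0.983), and for Cybb Slc9a9, Tlr8 and Rgs18 (r = 0.962 to 0.967). Nos2 was most like Pcdh12, a protocadherin of endothelium (r = 0.962), Slc7a1, the cationic amino acid transporter that brings in arginine (r = 0.959), and Fam124b (r = 0.959). The 15 pairs among the 6 phagocyte genes had r of 0.80 to 0.98 over the 20 animals and −0.21 to 0.80 over the 12 P14 animals, and Nos2 with the other 6 had r of −0.72 to −0.29 over the 20 and −0.47 to 0.57 over the 12.

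The wider pathway was followed in 5 lists. Against all 4 P7 controls, against the P6H55 controls and in the P14 comparisons, edgeR passed none of their genes. Of 20 genes for activation of the oxidase, 11 on P7 lay higher in every HIE pup than in every control, where 9.46% of all genes did, with a median log2 fold change of 1.01 over the 20, and 1 had an unadjusted p under 0.05, as had 27.3% of all genes. Of the 16 microglia markers 12 lay higher in the same way, with a median of 1.14, and no marker of border-associated macrophages or neutrophils did. The most abundant of the 20 were Itgam (1.11 ± 0.77 SE), Tyrobp, an adaptor of myeloid receptors (1.09 ± 0.69), and Dock2, which loads Rac with GTP (1.01 ± 0.68). Among the most abundant of the other subunits were Rac1 (0.41 ± 0.17) and Rap1a (0.62 ± 0.23), and Rap1a lay higher in every HIE pup. All 8 transcription factors had values above 0, with Irf8 at 1.17 ± 0.68, Spi1 at 1.09 ± 0.72 and Hif1a at 0.28 ± 0.14. On P14 the 20 genes had a median of 0.16 between HIE and control, and 2 had an unadjusted p under 0.05, as had 9.87% of all genes.

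Against the P6H63 controls, where 27.7% of all genes passed as higher and 30.8% as lower, 19 of the 20 activation genes passed as higher. Their median log2 fold change was 2.82 against −0.02 over all genes. Myeloid marker lists did likewise, so this does not set the activation genes apart. All 16 microglia markers (median 3.38), all 8 of border-associated macrophages (2.52) and 9 of 10 of neutrophils (2.59) passed as higher. Of 8 monocyte markers 4 passed as higher and 2 as lower. The activation genes include Itgam (3.59 ± 0.20 SE), and the Fc receptor genes Fcgr3 (3.33 ± 0.15) and Fcgr1 (3.31 ± 0.16), whose products start the burst when a phagocyte binds coated particles. Of 11 other oxidase subunits 9 were tested, 4 rose and 2 fell, beside the 27.7% and 30.8% of all genes. Among those that rose, Cybc1, a chaperone of the membrane core, rose by 1.56 ± 0.08 and Rap1a by 1.16 ± 0.07 on the log2 scale. Nox4, an oxidase of vessel walls, fell by 1.52 and Duox1 fell by 0.87. All 8 transcription factors rose, Spi1 by 3.34 ± 0.19, Irf8 by 3.23 ± 0.22 and Cebpb by 2.15 ± 0.19.

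The lists that are not limited to phagocytes had genes in both directions in the same comparison, in which 27.7% of all genes rose and 30.8% fell. Of 11 genes that handle superoxide and peroxide, 3 rose and 5 fell, and the 3 are about the share of all genes. Gpx1, a glutathione peroxidase, had a log2 fold change of 1.78 ± 0.07, Prdx5 of 0.48 ± 0.09 and Prdx1 of 0.20 ± 0.07. Sod3, the extracellular superoxide dismutase, fell by 1.39, Prdx6 fell by 1.34 and Prdx2 fell by 0.55. Of 13 genes for nitric oxide synthesis and arginine, 2 rose and 7 fell, against the same 27.7% and 30.8%. The arginine transporter gene Slc7a2 fell by 1.55, Ddah1, which breaks down an inhibitor of nitric oxide synthases, fell by 1.51 and Nos3, the endothelial synthase, fell by 1.45, while Asl (0.80 ± 0.11) and Pts (0.64 ± 0.07) were higher. Against the P6H55 controls the medians of the 5 lists lay between −0.12 and 0.28. There 11 of 20 activation genes and 7 of 8 transcription factors lay higher without overlap, as did 14.7% of all genes. Of the 16 microglia markers 12 did likewise, so this does not set these lists apart. In the other lists 1 to 3 genes lay higher and 1 to 3 lower without overlap, the latter beside 11.3% of all genes. Unadjusted edgeR p-values were under 0.05 for 11 of the 20 and 6 of the 8, and for 16.5% of all genes.

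**Figure D4:**
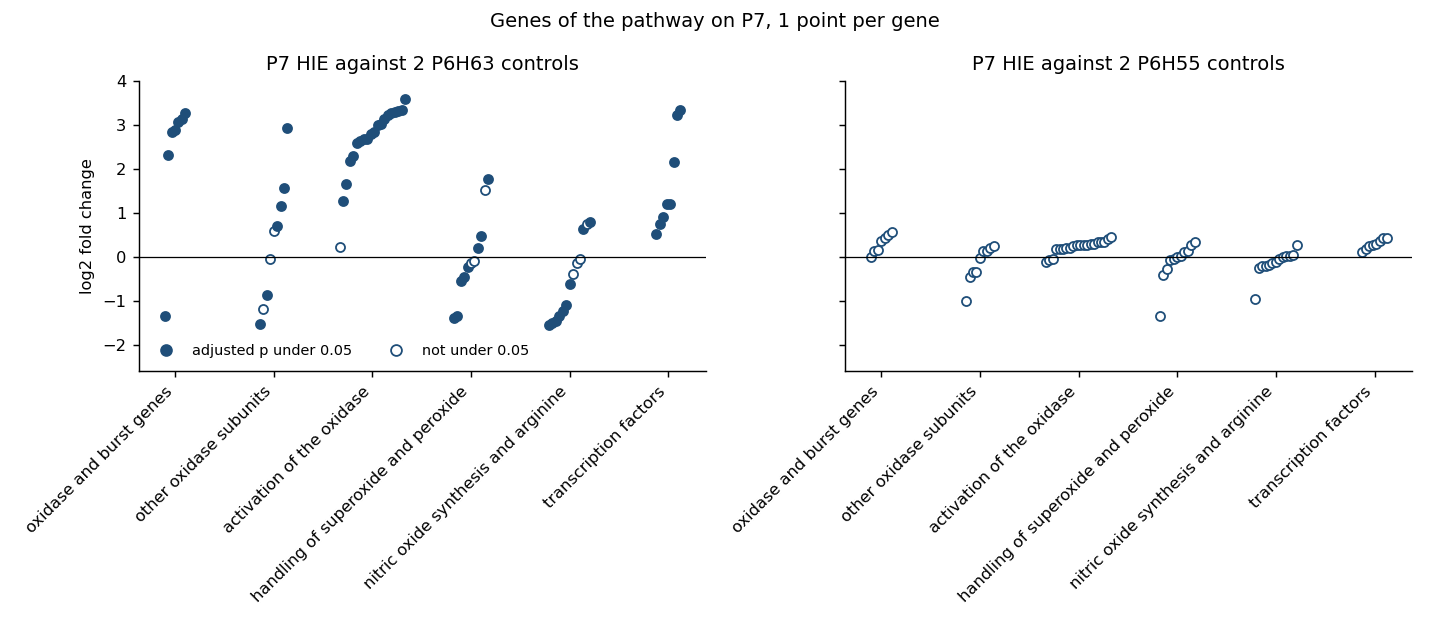
Log2 fold change of each gene of 6 lists on P7, HIE against the P6H63 controls on the left and against the P6H55 controls on the right, 1 point per gene, filled where the edgeR adjusted p is under 0.05. The activation list reaches 3.59 on the left and no gene passes on the right.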

How the data were processed

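Brains were dissociated, CD11b+ cells were enriched on beads and total RNA was depleted of ribosomal RNA for the libraries. FastQC, STAR, RSEM and the build GRCm39 are named in the submitters' processing notes. The authors deposited expected counts per gene from RSEM, not scaled for library size, and 84.2 to 88.0% of the values in a library were exactly whole, zeros included. RSEM divides reads that match several genes. Here the libraries of the 2 P14 HIE animals sequenced again were summed, counts were rounded, and identifiers were matched to GENCODE release M39, where 56017 of 56691 matched. The marker Fcrls is listed there as Fcrl2.

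Tests used the quasi-likelihood fit of edgeR 4.0.16 in R 4.3.3 on all genes that passed its filter on low counts, with TMM normalization and Benjamini-Hochberg adjustment over all genes tested, and a threshold of 0.05. Confidence intervals used the t distribution of that fit. DESeq2 1.42.0 and edgeR's exact test were alternatives. Levels are TMM-scaled CPM, log2 values used a prior count of 2, and a marker score is the mean log2 CPM of its genes. The procedures were tested on simulated counts with known changes, where animals were drawn independently and the variation of each gene was held at or below the median. Such counts hold no split among controls like that on P7, so this test does not bear on it. The members, lists, tests and alternatives were chosen with earlier results of these data known. Named were the 7 genes, of each list at most 3 genes per direction past the threshold or else the 3 most abundant, and for likeness the 3 genes with the largest r. Of the genes this rule names, 1 is not reported here. Results against P6H63 or P6H55 rest on 2 controls each. Scaling, filter, test and each animal in turn were varied in every comparison, sex label in all but that between the days, name prefix (P4H or P6H) in the P14 comparisons and repeated libraries in those with P14 HIE. The P7 fits with sex label and the hypoxia fits with name prefix were added after the data were seen.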

Additional observations from a re-analysis of the deposited data

Results flagged for a closer look

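Of 35 groups of 4 animals, 7 genes in 5 groups, 2 held an animal far from the other 3, where the gap to the nearest other animal took up more than 0.829 of the group's range. About 1 in 20 such groups would be flagged by chance. Hvcn1 in the P14 controls ran from 66.7 to 99.2 CPM, and the gap below the highest animal, P6H8-8F, was 0.875 of the range. Nos2 in the P14 hypoxia group ran from 2.01 to 3.54 CPM, and the gap below the highest animal, P6H7-8F, was 0.949 of the range.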

How the results depend on the processing

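The call of none of the 7 genes on P7 against all 4 controls and in the P14 comparisons, and of all 7 against the P6H63 controls, held under the alternatives tried except for the following. With libraries scaled to the microglia markers, 1 gene passed on P7 against all controls (Nos2, −3.73), 2 passed against the P6H63 controls (Cyba and Nos2) and 1 passed between the P7 and P14 differences (Nos2, −3.62). Against the P6H55 controls 1 gene passed without the filter, 3 with DESeq2, 2 with edgeR's exact test, and 0 to 4 when each animal was left out. Over the whole table, P7 HIE against all controls passed 15 genes with the main test, 3024 with DESeq2, 1311 with the exact test, 3222 in 1 fit of all groups and 5588 without the control P6H55-7.

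Scaling to the microglia markers also turned directions, none of them past the threshold except Cyba against the P6H63 controls. On P7 against all controls the log2 fold changes became −0.37 for Cybb, −0.66 for Cyba, −0.05 for Ncf1, −0.02 for Rac2 and −0.21 for Hvcn1. Against the P6H63 controls they became −0.51 for Cybb, −1.01 for Cyba, −0.22 for Ncf1, −0.15 for Ncf4, −0.04 for Rac2 and −0.43 for Hvcn1. Against the P6H55 controls they became −0.22 for Cybb, −0.20 for Cyba and −0.36 for Nos2, and by library size alone Nos2 became −0.05. On P14 HIE against control they became −0.16 for Cybb, −0.13 for Cyba, −0.20 for Ncf4, −0.07 for Rac2, −0.18 for Hvcn1 and −0.11 for Nos2, and against hypoxia −0.03 for Cybb, −0.05 for Cyba, −0.08 for Ncf4, −0.12 for Rac2 and −0.02 for Hvcn1. For hypoxia against control Ncf1 became −0.03. Between the P7 and P14 differences they became −0.22 for Cybb, −0.53 for Cyba and −0.03 for Hvcn1. For hypoxia against control, Cyba was 0.00 with DESeq2's size factors, without the filter and with DESeq2, and 0.02 in 1 fit of all groups, where Ncf4 was 0.00. This scaling levels the markers by construction, and the cause of the differences was not tested.

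Sex label as a covariate turned Cybb (−0.18), Cyba (−0.02) and Nos2 (−0.16) against the P6H55 controls. As all HIE pups of P7 were male, these values rest on the male control P6H55-7 alone and are close to those without the female control. Name prefix as a covariate turned Ncf1 (−0.06) and Nos2 (0.36) for hypoxia against control, and Cyba (−0.04), Ncf4 (0.00), Rac2 (−0.14), Hvcn1 (−0.04) and Nos2 (−0.08) for HIE against hypoxia. All hypoxia animals are P6H, so these fits in effect compared them with the P6H controls or the P6H animals of HIE alone.

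On P7 against all controls, leaving out each animal turned no direction, and the range was 0.59 to 1.62 for Cybb, 0.56 to 1.34 for Cyba, 0.92 to 1.75 for Ncf1, 1.00 to 1.83 for Ncf4, 0.83 to 1.77 for Rac2, 0.85 to 1.68 for Hvcn1 and −1.07 to −0.47 for Nos2. The highest value of the 6 phagocyte genes came without P6H55-7 and the lowest without P6H63-8, and for Nos2 the value nearest 0 came without P6H63-7. In the other comparisons it turned only differences near 0. Against the P6H55 controls the range was −0.17 to 0.54 for Cybb, −0.01 to 0.37 for Cyba and −0.15 to 0.21 for Nos2. On P14 HIE against control it was −0.12 to 0.06 for Ncf1, −0.05 to 0.14 for Ncf4 and −0.12 to 0.39 for Nos2. For hypoxia against control it was −0.19 to 0.10 for Cybb, −0.08 to 0.10 for Cyba, −0.10 to 0.15 for Ncf1, −0.18 to 0.15 for Ncf4, −0.14 to 0.09 for Hvcn1 and −0.40 to 0.11 for Nos2. For HIE against hypoxia it was −0.19 to 0.06 for Ncf1, −0.13 to 0.21 for Ncf4 and −0.08 to 0.17 for Rac2. The difference in the microglia score was 1.24 to 2.33, with p = 0.0571 in the exact permutation test each time, the smallest that 3 against 4 animals allow. No paired analysis was possible because the labels give no replicate numbers that groups share. On P7, the tests against all 4 controls include the spread between pups of 2 name prefixes, read here as litters. What set the size of their adjusted p-values was not tested.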
